A study of Mus musculus with 2 samples.

Results

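The autophagy and mitophagy genes are a list of 39 mouse genes, of which 32 encode the core machinery of autophagosome formation and 7 encode selective autophagy receptors or mitophagy factors. The members were taken from a list of names drawn up with earlier results of these data known, with no threshold on a measured value, and all 39 were found among the 21536 protein-coding genes that could be placed with a strand. Trimethylation of histone H3 at lysine 4 (H3K4me3) was measured by chromatin immunoprecipitation and sequencing in MEL cells, an immortalised mouse erythroleukaemia line. The series holds a single group of 2 biological replicates, both treated with 2% dimethyl sulfoxide (DMSO) for 5 days. Untreated MEL cells were not analysed here, so the values describe the DMSO-treated state and no change with treatment was tested. Because the line is a leukaemia line grown in culture, the values are those of transformed cells.

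Autophagy delivers cytoplasm and organelles to the lysosome inside a closed membrane, the autophagosome. The ULK kinase complex starts the process, a class III phosphatidylinositol 3-kinase marks the growing membrane with its lipid, and ATG9, ATG2 and WIPI proteins supply and extend it. A pair of ubiquitin-like conjugation systems then couples ATG8 proteins of the LC3 and GABARAP families to the membrane, where receptors bind them and bring cargo. In mitophagy the cargo is the mitochondrion, and maturing red cells use it to clear their mitochondria, for which BNIP3L (NIX) is the best known receptor. H3K4me3 lies around the start sites of active and poised genes, so a peak there describes the chromatin of a promoter and is not a measure of transcript amount.

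A gene was called marked when each replicate had a peak that reached within 1000 bp of its 5' end, the outermost base of its RefSeq span on the build mm10. By this rule 37 of the 39 members (94.9%) were marked, beside 47.1% of all protein-coding genes. All 7 receptor and mitophagy genes and 30 of the 32 core genes were marked, and Atg9b and Atg4c were the members without a peak at the 5' end in either replicate. With the whole gene span and 1000 bp around it, all 39 members held a peak of both replicates, beside 57.9% of all genes. At the starts listed in the RefSeq promoter table, which holds 32 of the members, 30 of the 32 were marked, beside 49.6% of all genes in the table. Presence of the mark was therefore nearly uniform over the pathway, and the members differed in its strength, width and position.

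The sequences upstream of 7 members are shown because they span the range from the broadest marked promoter to an unmarked 5' end. Each is the 250 bp upstream of the RefSeq start, written 5' to 3' on the gene's strand from the RefSeq promoter table of GRCm38.p6 (the assembly of mm10), with each CpG in capitals. Bnip3, Sqstm1 and Pink1 are receptor or mitophagy genes, with 24, 14 and 13 CpG. Map1lc3b, the most CpG-rich of those printed, holds 30 CpG. Pik3r4 combines a strong peak with a narrow domain and holds 9 CpG. Atg4a has a weak peak at its 5' end and 3 CpG, and Atg9b has no peak there and a single CpG.
Bnip3, chr7:138909507-138909756, minus strand: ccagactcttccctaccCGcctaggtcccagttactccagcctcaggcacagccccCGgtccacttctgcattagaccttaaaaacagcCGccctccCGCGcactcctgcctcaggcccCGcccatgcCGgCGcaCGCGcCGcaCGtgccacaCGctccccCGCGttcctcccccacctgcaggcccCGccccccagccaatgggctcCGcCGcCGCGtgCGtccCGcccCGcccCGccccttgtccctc
Sqstm1, chr11:50210821-50211070, minus strand: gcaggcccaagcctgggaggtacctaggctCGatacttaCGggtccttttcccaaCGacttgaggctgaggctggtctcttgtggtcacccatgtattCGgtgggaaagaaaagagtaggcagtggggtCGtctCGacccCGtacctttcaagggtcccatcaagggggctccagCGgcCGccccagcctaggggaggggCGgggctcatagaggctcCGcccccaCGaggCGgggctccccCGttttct
Pink1, chr4:138326297-138326546, minus strand: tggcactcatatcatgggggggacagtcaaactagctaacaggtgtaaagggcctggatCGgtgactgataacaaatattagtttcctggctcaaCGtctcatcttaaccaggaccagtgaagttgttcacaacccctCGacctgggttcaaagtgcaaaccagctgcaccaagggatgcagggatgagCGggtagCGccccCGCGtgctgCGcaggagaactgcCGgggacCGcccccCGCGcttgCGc
Map1lc3b, chr8:121590188-121590437, plus strand: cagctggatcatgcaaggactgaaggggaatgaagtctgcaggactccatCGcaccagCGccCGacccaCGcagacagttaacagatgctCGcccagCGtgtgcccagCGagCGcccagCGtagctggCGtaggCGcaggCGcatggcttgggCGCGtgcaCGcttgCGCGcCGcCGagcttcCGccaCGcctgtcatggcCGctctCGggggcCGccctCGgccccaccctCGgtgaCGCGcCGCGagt
Pik3r4, chr9:105642745-105642994, plus strand: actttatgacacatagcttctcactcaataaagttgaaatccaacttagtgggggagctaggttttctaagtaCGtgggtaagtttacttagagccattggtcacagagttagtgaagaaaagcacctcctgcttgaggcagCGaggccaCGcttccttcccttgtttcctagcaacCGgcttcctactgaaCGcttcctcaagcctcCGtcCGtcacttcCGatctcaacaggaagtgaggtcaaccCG
Atg4a, chrX:140953595-140953844, plus strand: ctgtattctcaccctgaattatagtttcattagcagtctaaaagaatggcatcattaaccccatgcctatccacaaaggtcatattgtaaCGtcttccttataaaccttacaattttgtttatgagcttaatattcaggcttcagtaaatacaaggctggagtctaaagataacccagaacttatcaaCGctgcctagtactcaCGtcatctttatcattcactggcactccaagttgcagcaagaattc
Atg9b, chr5:24392144-24392393, minus strand: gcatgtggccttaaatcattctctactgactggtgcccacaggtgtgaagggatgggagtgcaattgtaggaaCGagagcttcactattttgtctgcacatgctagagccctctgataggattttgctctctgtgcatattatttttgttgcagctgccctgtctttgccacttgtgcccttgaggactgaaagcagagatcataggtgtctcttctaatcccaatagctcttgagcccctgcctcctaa

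CpG were more frequent upstream of marked than of unmarked starts, and the members lay near other marked genes in this. The table held 35 starts of 32 members, and their upstream windows had a median of 15 CpG, beside 10 over all 21263 starts, 17 over marked starts and 3 over unmarked starts. The 33 marked member starts ranged from 3 to 43 CpG, with Atg4b, which encodes a protease that processes ATG8 proteins, at the top. Unmarked were the single table start of Atg7 (3 CpG) and that of Atg9b (1 CpG). For Atg7, the E1-like enzyme of both conjugation systems, the table start lies 27969 bp downstream of the 5' end, and the 5' end itself was marked.

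Short motifs were searched on both strands of the same 250 bp windows, and a match is a description of letters, not a binding site. The palindrome CACGTG, the core of the element bound by TFEB, the main transcription factor of lysosomal genes, occurred at 4 of the 35 member starts (11.4%), in Atg3, Atg5, Bnip3 and at the unmarked inner start of Atg7, beside 6.63% of all starts and 8.89% of marked starts. The shorter ACGTG, the core of the hypoxia response element, which also lies within CACGTG, occurred at 13 member starts (37.1%), beside 17.8% of all and 23.1% of marked starts. The Bnip3 window printed above holds both. The GATA-type letters AGATAA occurred at 2 member starts (5.71%), those of Atg4a and Atg4d, beside 8.81% of all and 5.71% of marked starts. GGGCGG, the letters of a GC box, occurred at 21 member starts (60%), beside 42.6% of all and 62.1% of marked starts. CCAAT occurred at 11 member starts (31.4%), beside 35.4% of all and 36.4% of marked starts. The forkhead letters GTAAACA occurred at none, beside 2.62% of all and 1.98% of marked starts.

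The strength of the mark was taken as the enrichment value, the authors' signal value of a peak, whose scale is not stated. For each gene and replicate it is that of the highest peak in the 5' window. The highest peak can differ between replicates, as it does for Atg9a, Atg4b, Atg14, Atg16l1, Bnip3l and Nbr1. For these genes the mean and SD combine values of peaks that do not overlap. Neighbouring peaks no more than 1000 bp apart were merged into domains, and the broadest domain touching the window was measured. All means are given with the SD over the 2 replicates (n = 2). The 37 marked members had a median enrichment value of 14.7, beside 13.2 over the 10133 marked genes, and a median domain of 2424 bp, beside 2258 bp. In value 22 of the 37 lay above the median of all marked genes, and in width also 22. The interquartile range of the members was 10.8 to 15.6 in value and that of all marked genes 10.8 to 15.7, so the members overlapped the other marked genes almost throughout. Of the 37, 3 were in the top decile of marked genes by value and 2 in the bottom decile. By width 1 was in the top decile and 4 in the bottom decile.

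**Figure D1:**
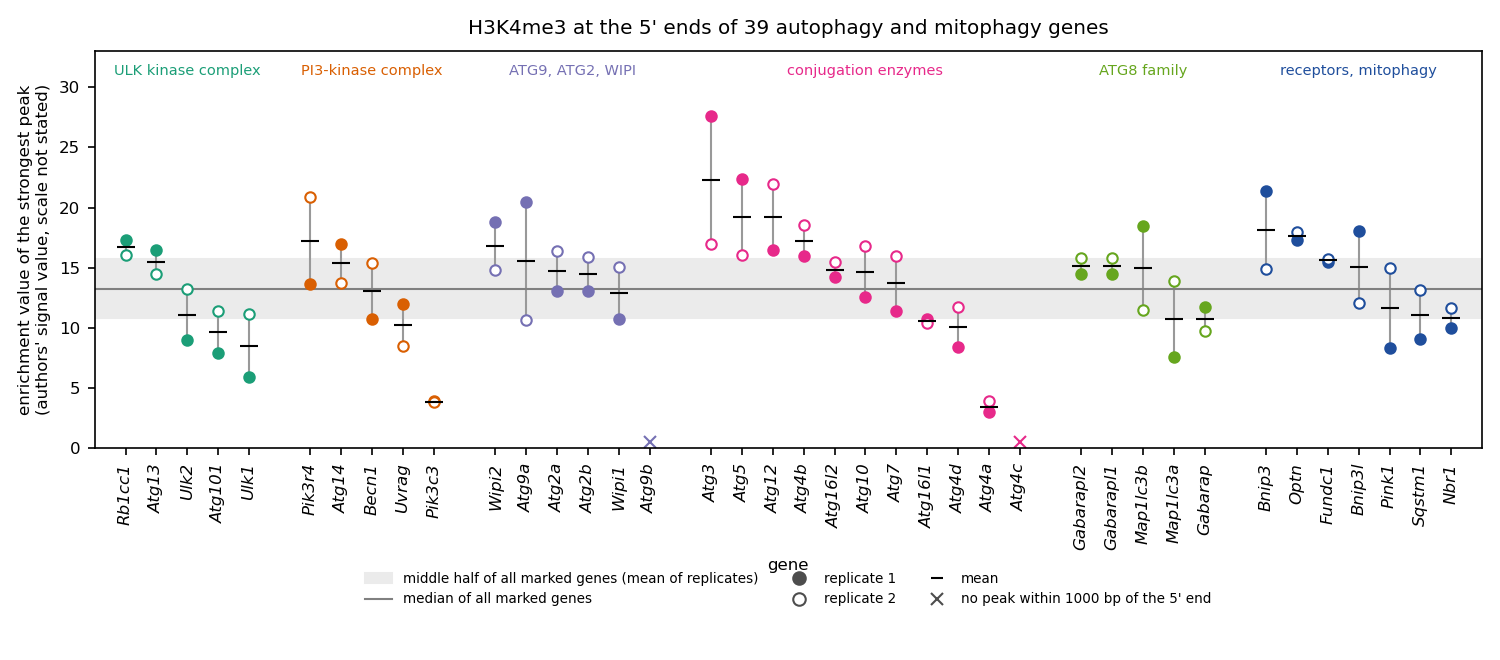
Enrichment value of the strongest peak within 1000 bp of the 5' end (y axis, authors' signal value, scale not stated) for the 39 members (x axis), grouped by role. Filled circles are replicate 1, open circles replicate 2, short bars their mean, crosses members with no peak there. The grey line and band are the median (13.2) and the interquartile range (10.8 to 15.7) of all marked genes. Atg3 has the highest mean, and Atg4a and Pik3c3 lie far below all other marked members within this window.

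Among the receptors, Bnip3 and Bnip3l encode outer mitochondrial membrane proteins that bind ATG8 proteins directly. Bnip3 (chr7:138890836-138909506, minus strand) had an enrichment value of 21.4 in replicate 1 and 14.9 in replicate 2 (18.1 ± 4.59). Its domain measured 5069 and 4349 bp (4709 ± 509), the widest of all 37 and wider than 94.6% of marked genes. Bnip3l (chr14:66985238-67008877, minus strand) had values of 18.02 and 12.04 (15.0 ± 4.23) and a domain of 2751 and 2601 bp. Replicate 1 was the higher for both genes. The Bnip3l values came from different peaks, 413 to 1825 bp downstream of the 5' end in replicate 1 and upstream of it in replicate 2. In both replicates the Bnip3 domain was wider than that of Bnip3l, by more than the spread of either gene between replicates. Its CpG-dense upstream sequence, printed above, lies in the shorter upstream arm of the domain, which reached 1319 and 1325 bp upstream and 3749 and 3023 bp downstream of the 5' end.

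Fundc1 and Optn had the most even values of the group. Fundc1 (chrX:17519967-17572329, minus strand), a receptor of the outer mitochondrial membrane, had values of 15.5 and 15.7 (15.6 ± 0.165) and a domain of 1738 and 1850 bp. Optn (chr2:5020521-5064399, minus strand), which encodes optineurin, a ubiquitin-binding receptor, had values of 17.3 and 18.01 (17.7 ± 0.490), the second highest mean of the receptors. The Optn domain lay almost wholly downstream of the 5' end, with 32 and 19 bp upstream and 1803 and 1873 bp downstream.

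Pink1, Sqstm1 and Nbr1 were the 3 lowest receptors in mean value. Pink1 (chr4:138313409-138326296, minus strand), the kinase that labels damaged mitochondria, had values of 8.31 and 15.0 (11.7 ± 4.75) and the narrowest receptor domain, of 1009 and 1315 bp. Its replicates were 1.81-fold apart, so its place in the order depends on the replicate. Sqstm1 (chr11:50200152-50210820, minus strand), which encodes the ubiquitin receptor p62, had values of 9.04 and 13.2 (11.1 ± 2.91) and a domain of 2289 and 2698 bp. Nbr1 (chr11:101552107-101581951, plus strand), a receptor related to p62, had values of 10.04 and 11.7 (10.8 ± 1.14). These came from different peaks, 751 to 2078 bp downstream of the 5' end in replicate 1 and upstream of it in replicate 2. The Nbr1 domain of 3532 and 3689 bp (3610.5 ± 111) was the third widest of the members, so a low value went with a wide domain there.

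The ULK kinase complex had the lowest median value of the core groups, 11.1 over its 5 marked genes, with a median width of 2698 bp. Ulk1 (chr5:110784489-110810120, minus strand), the initiating kinase, had values of 5.90 and 11.1 (8.51 ± 3.70), 1.89-fold apart, yet a domain of 2672 and 3381 bp, wider than 75.2% of marked genes. Atg101 (chr15:101284301-101290947, plus strand), a subunit that stabilises ATG13, had values of 7.94 and 11.4 (9.68 ± 2.46). The scaffold gene Rb1cc1 (FIP200) and Atg13 stood higher, with 17.3 and 16.1 for Rb1cc1 and 16.5 and 14.5 for Atg13. In both replicates Rb1cc1 and Atg13 lay above Ulk1, Ulk2 and Atg101. The Atg13 value came in both replicates from a peak wholly upstream of its 5' end, on the side of the opposite-strand gene Harbi1.

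The class III phosphatidylinositol 3-kinase genes had a median value of 13.1 and the smallest median width, 1563 bp, over 5 marked genes. Pik3r4 (chr9:105642995-105687655, plus strand), the regulatory subunit VPS15, had values of 13.7 and 20.8 (17.3 ± 5.07) in a domain of only 1419 and 1299 bp, wider than only 12.9% of marked genes. Becn1 and Atg14, the beclin subunit and its targeting partner, had mean values of 13.1 ± 3.28 and 15.4 ± 2.29 and domains of 1676.5 and 1563 bp on average. The Atg14 values came from different peaks in the replicates. Uvrag, the alternative partner of beclin, was lower and wider, with a mean value of 10.2 ± 2.50 (6.47 in the pooled set) and a mean domain of 2892 bp. The catalytic subunit gene Pik3c3 (VPS34) was the exception of the group and is described with the inner peaks below.

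The membrane group had 5 of 6 genes marked, a median value of 14.7 and a median width of 2456.5 bp. Wipi1 (chr11:109573521-109611389, minus strand), which reads the lipid made by VPS34, had values of 10.7 and 15.1 (12.9 ± 3.08) and the second widest member domain, of 3769 and 4011 bp. Most of it lay upstream, 2609 and 2761 bp, and the 5' end of the long noncoding RNA gene Gm11685 on the opposite strand fell inside it. Wipi2 had a higher mean value, 16.8 ± 2.84. Atg9a, the scramblase that supplies membrane, was the least even of all members, with 20.5 in replicate 1 and 10.7 in replicate 2, 1.92-fold apart. These are values of different peaks, chr1:75192179-75193488 upstream of the 5' end in replicate 1 and chr1:75191177-75191996 downstream of it in replicate 2. The lipid transfer genes Atg2a and Atg2b had mean values of 14.7 ± 2.31 and 14.5 ± 2.04.

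Genes of the conjugation systems included both the strongest and the weakest marked members at the 5' end. The weakest, Atg4a, had a value of 3.46 there and of 12.97 with a window of 2000 bp. Their median value was 14.8 and their median width 2470 bp over 10 marked genes of 11. Atg3 (chr16:45158829-45188538, plus strand), the E2-like enzyme that transfers ATG8 proteins to lipid, had values of 27.6 and 17.0 (22.3 ± 7.56), the highest mean of the members and above 98.5% of marked genes. Atg5 (chr10:44268322-44364299, plus strand) had values of 22.4 and 16.1 (19.2 ± 4.50), and Atg12 (chr18:46732417-46741724, minus strand) had 16.5 and 21.95 (19.2 ± 3.89). ATG5 and ATG12 are joined to each other in the first conjugation system, on which these values do not bear. The means of Atg5 and Atg12 were nearly equal, but their order was opposite in the replicates. In both replicates the Atg12 value came from a peak wholly upstream of its 5' end, on the side of the opposite-strand gene Ap3s1. The Atg5 value came from a peak downstream of its 5' end. The order of Atg3, Atg5 and Atg12 differed between replicates, with Atg12 the lowest of the 3 in replicate 1 and the highest in replicate 2.

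Of the 4 genes for ATG4 proteases, which trim ATG8 proteins, Atg4b (chr1:93754905-93789606, plus strand) was the strongest at the outermost 5' end, with 15.97 and 18.5 (17.2 ± 1.81). Atg4d (chr9:21265205-21274837, plus strand) had 8.46 and 11.8 (10.1 ± 2.34) in a domain of 2885.5 bp on average. Atg4a was weak and Atg4c unmarked at the 5' end, as described below. The other conjugation genes were intermediate. Atg7, Atg10 and Atg16l2 had mean values of 13.7 ± 3.28, 14.7 ± 2.97 and 14.9 ± 0.886. Atg16l1, the main scaffold partner of ATG12 and ATG5, had a mean of 10.6 ± 0.216, with values 1.03-fold apart. These came from different peaks, 34 to 1703 bp downstream of the 5' end in replicate 1 and upstream of it in replicate 2. The small SD is therefore not the spread of a single peak.

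The 5 ATG8 family genes had a median value of 15.0 and a median width of 2116.5 bp. Map1lc3b, the source of the standard autophagosome marker LC3B, had values of 18.4 and 11.5 (15.0 ± 4.93) and a mean domain of 2603.5 bp. Gabarapl1 and Gabarapl2 had almost the same values, with means of 15.1 ± 0.929 and 15.1 ± 0.917, and Gabarap was lower at 10.7 ± 1.40. Map1lc3a (chr2:155276364-155278073, plus strand) had values of 7.57 and 13.9 (10.7 ± 4.47) and the third narrowest member domain, of 670 and 1282 bp. Its domain began 235 bp downstream of the 5' end in replicate 1 and 263 bp upstream of it in replicate 2. Map1lc3a and Map1lc3b overlapped in value over the replicates, and their widths did not overlap.

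**Figure D2:**
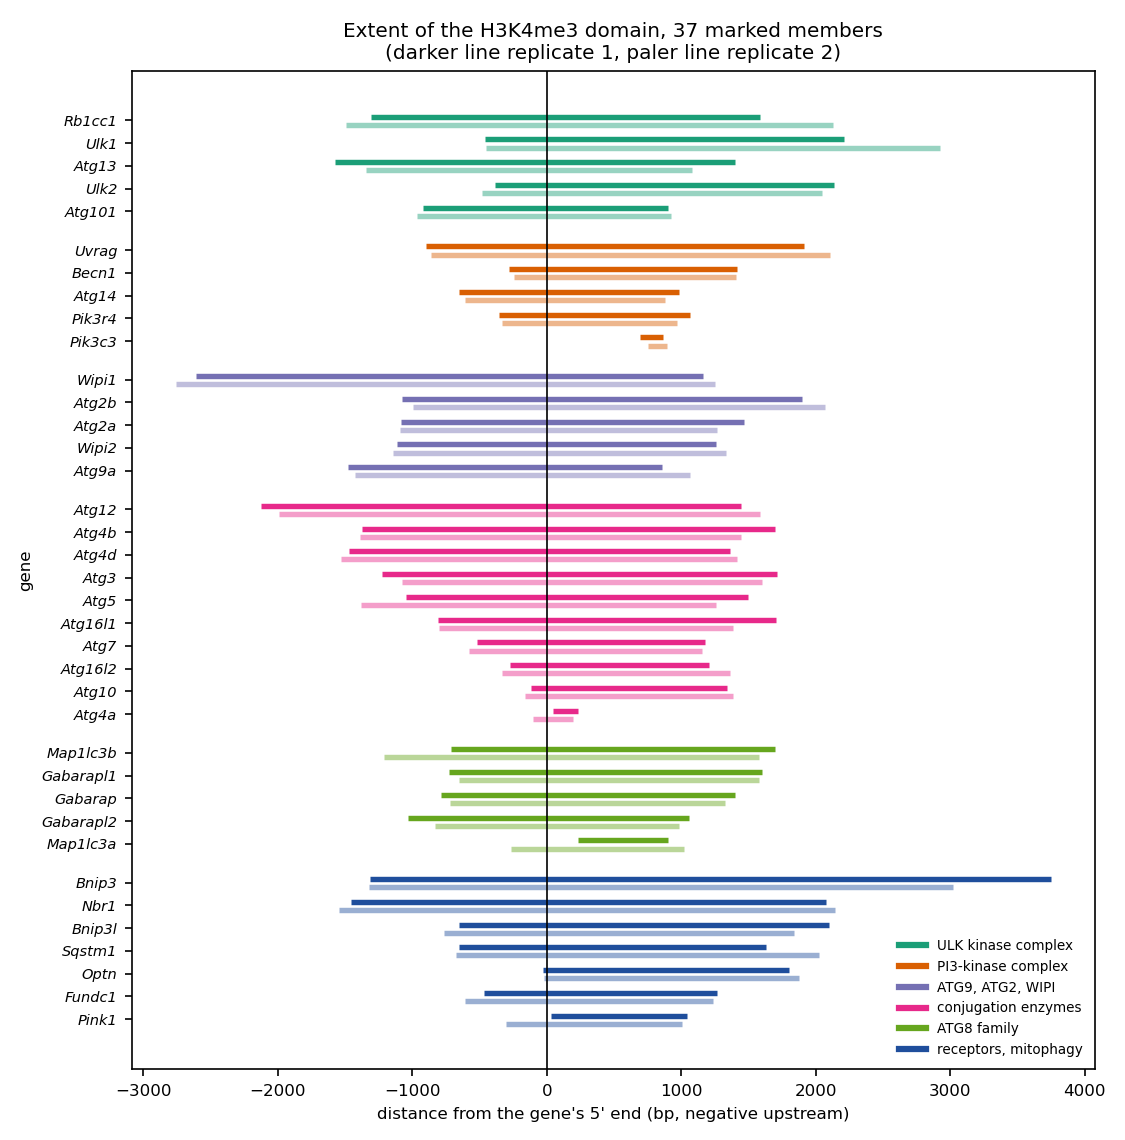
Extent of the H3K4me3 domain of each of the 37 marked members (y axis) as the distance from the gene's 5' end in bp (x axis, negative upstream), by role. The darker line is replicate 1 and the paler line replicate 2. Bnip3 reaches farthest downstream, Wipi1 farthest upstream, and Pik3c3 and Atg4a have short stubs.

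The domains lay mainly on the gene side of the 5' end. In 31 of the 37 marked members the domain reached farther downstream than upstream, beside 76% of all marked genes. In 33 of the 37 it covered ground on both sides of the 5' end in both replicates, beside 88.6% of marked genes. The 5' end itself was covered by a peak in both replicates for 12 members, beside 42.5% of marked genes, and in neither replicate for 13 members, beside 35.7%.

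Some domains were shared with a neighbouring gene. In 10 of the 37 marked members, beside 31.6% of marked genes, the domain also held the 5' end of another gene, in each case on the opposite strand, so the mark there cannot be assigned to 1 gene. In 7 of these, a count whose share over all marked genes was not computed, the neighbour is protein-coding and starts within 300 bp. They were Atg13 with Harbi1 (255 bp), Atg9a with Ankzf1 (150 bp), Atg2b with Gskip (55 bp), Atg3 with Slc35a5 (156 bp), Atg4b with Thap4 (67 bp), Atg12 with Ap3s1 (30 bp) and Nbr1 with Brca1 (152 bp). The 3 noncoding neighbours were Gm11685 for Wipi1, Gm40637 for Atg5 and 1700101I11Rik for Gabarapl1. Of the 5 strongest core genes, only Pik3r4 had no neighbour's 5' end in its domain.

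**Figure D3:**
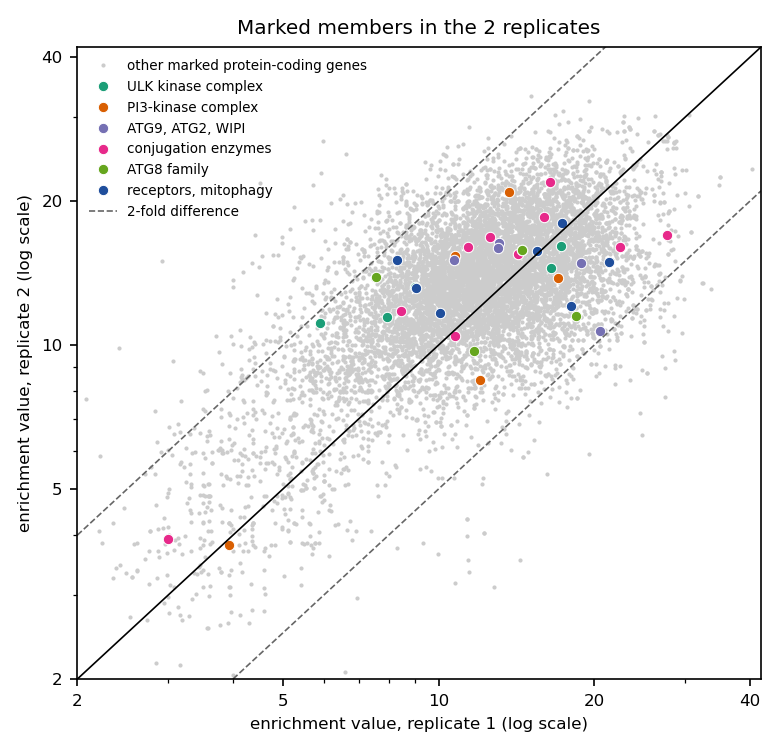
Enrichment value in replicate 1 (x axis, log scale) against replicate 2 (y axis, log scale) for the 37 marked members, coloured by role, over the other marked protein-coding genes (grey). The solid line marks equal values and the dashed lines a 2-fold difference. All members lie between the dashed lines.

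The values of the replicates were within 2-fold for every marked member, also where they came from different peaks. None of the 37 was more than 2-fold apart, beside 4.49% of marked genes. A further 7 were 1.5-fold or more apart, for which the share over all marked genes was not computed. Replicate 2 was the higher in 23 of the 37, beside 64.1% of marked genes. Over the 37 members the log2 values of the replicates had a Pearson's r of 0.699 and a Spearman's rho of 0.454, and the log2 widths 0.970 and 0.936. The points are genes within the same 2 samples and are not independent replicates. Width was thus the steadier of the 2 measures. Value and width had a Pearson's r of 0.728 and a rho of 0.229 over the 37 members, and 0.128 and 0.089 over the 35 without Pik3c3 and Atg4a, so among the members that relation rested on those 2 genes. Over all 10133 marked genes the 2 measures had a Pearson's r of 0.50 and a rho of 0.356.

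**Figure D4:**
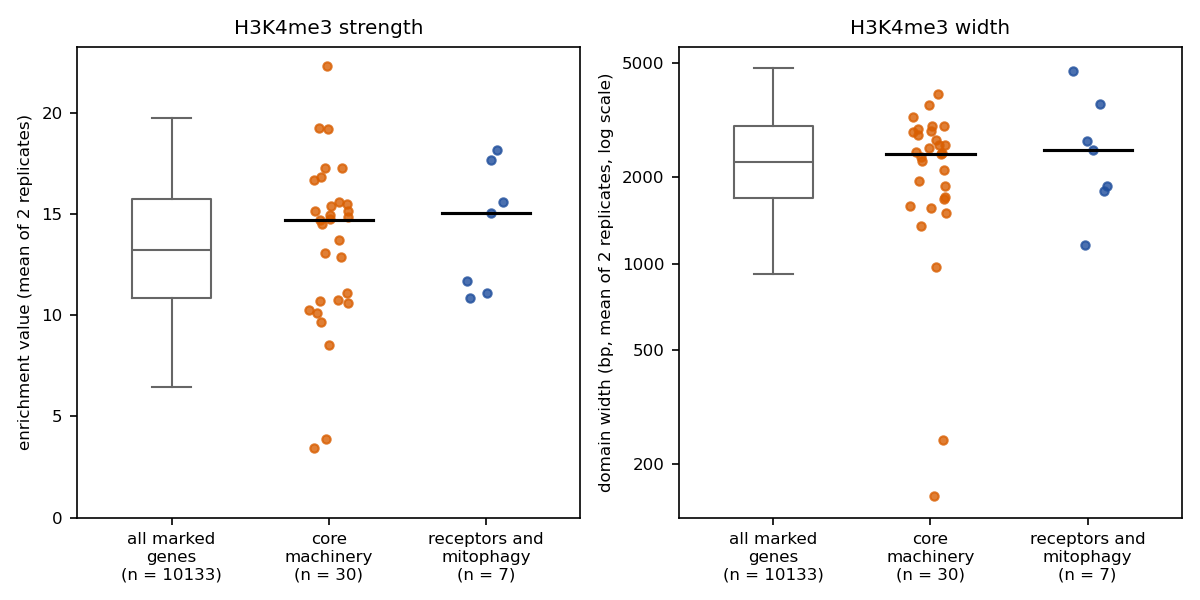
Mean enrichment value (left, y axis) and mean domain width in bp (right, y axis, log scale) of the marked core genes (n = 30) and receptor and mitophagy genes (n = 7), each point 1 gene and each bar the median. Boxes show the median and interquartile range of all marked genes, whiskers their percentiles 5 to 95. The receptors lie within the range of the core genes in value, and Bnip3 is the one receptor wider than every core gene.

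Core machinery and receptors did not separate in strength or width. The median value was 14.7 over 30 core genes and 15.0 over 7 receptor genes, and the median width 2420 and 2494 bp. In replicate 1 the medians were 13.1 for the core and 15.5 for the receptors, and in replicate 2 they were 14.95 and 14.88. The receptor values ran from 10.8 to 18.1. Below them lay 9 core genes and above them 3, namely Atg3, Atg5 and Atg12. In width Wipi1 was the 1 core gene wider than Nbr1, the second widest receptor, and Bnip3 was wider than all. The direction of the difference in value changed with the replicate left out, with the pooled and replicated peak sets (12.01 for the receptors and 13.5 for the core) and with a width-weighted mean.

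The 4 core genes chosen for a weak or unmarked outermost 5' end held peaks further inside the gene. Atg4c (chr4:99189159-99297258, plus strand) had no peak at the outermost 5' end, but its RefSeq promoter starts lie 4775 and 4988 bp further in. Both fell inside a peak that ran from 3899 to 6216 bp in replicate 1 and from 3839 to 6021 bp in replicate 2. That peak had values of 19.98 and 16.4. At those starts Atg4c was thus marked in both replicates, with values in the range of the strongest members. A further Atg4c peak lay from 10289 to 11856 bp, with values of 11.2 and 12.97 in the replicates.

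Atg4a (chrX:140953845-141164194, plus strand) had 2.99 and 3.93 (3.46 ± 0.668) at its 5' end, in a domain of 187 and 300 bp. Its other table start, 3062 bp downstream, fell inside a peak with values of 10.7 and 12.5. Beside it lay another peak, from 1861 to 2888 bp in replicate 1, with values of 10.3 and 15.7. The 5' end of Psmd10, a proteasome assembly gene on the opposite strand, lies there too, so the inner Atg4a domain of 2114 and 2058 bp is shared.

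Pik3c3 (chr18:30265615-30348126, plus strand) had 3.94 and 3.81 (3.88 ± 0.0882) at its 5' end, in the narrowest member domain, of 168 and 142 bp, narrower than nearly all marked genes. With a window of 2000 bp its value was 9.24. Its strongest peak lay 7208 to 8191 bp downstream in replicate 1 and 7187 to 8210 bp in replicate 2, with values of 9.77 and 11.9. Pik3c3 is not in the promoter table. In the GENCODE M1 annotation on mm9, the outermost of its 4 starts and the others, at most 180 bp further in, all lay inside a peak of the older mm9 set, from 708 bp upstream to 1141 bp downstream of the outermost one. The mm9 starts were not placed on mm10. Whether they match the mm10 5' end of Pik3c3 or lie at its inner peaks was not tested. Atg9b (chr5:24384181-24392143, minus strand), a relative of Atg9a, had its strongest inner peak from 4300 to 5176 bp with 9.16 in replicate 1 and from 3008 to 5299 bp with 13.3 in replicate 2. No other gene's 5' end and no Atg9b start of the RefSeq table lies in that inner domain of 2474 and 3107 bp. On mm9, GENCODE M1 has an Atg9b start 4177 bp inside its outermost one, and a peak of the older set covered it, from 2341 to 5229 bp. That start was not placed on mm10 either. In Pik3c3 and Atg4a the strongest inner peak was higher than the peak at the 5' end in both replicates. Atg4c and Atg9b had no peak at the 5' end to compare. Since the 4 genes were chosen for a weak or unmarked 5' end, this order describes them and is not a separate result.

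**Figure D5:**
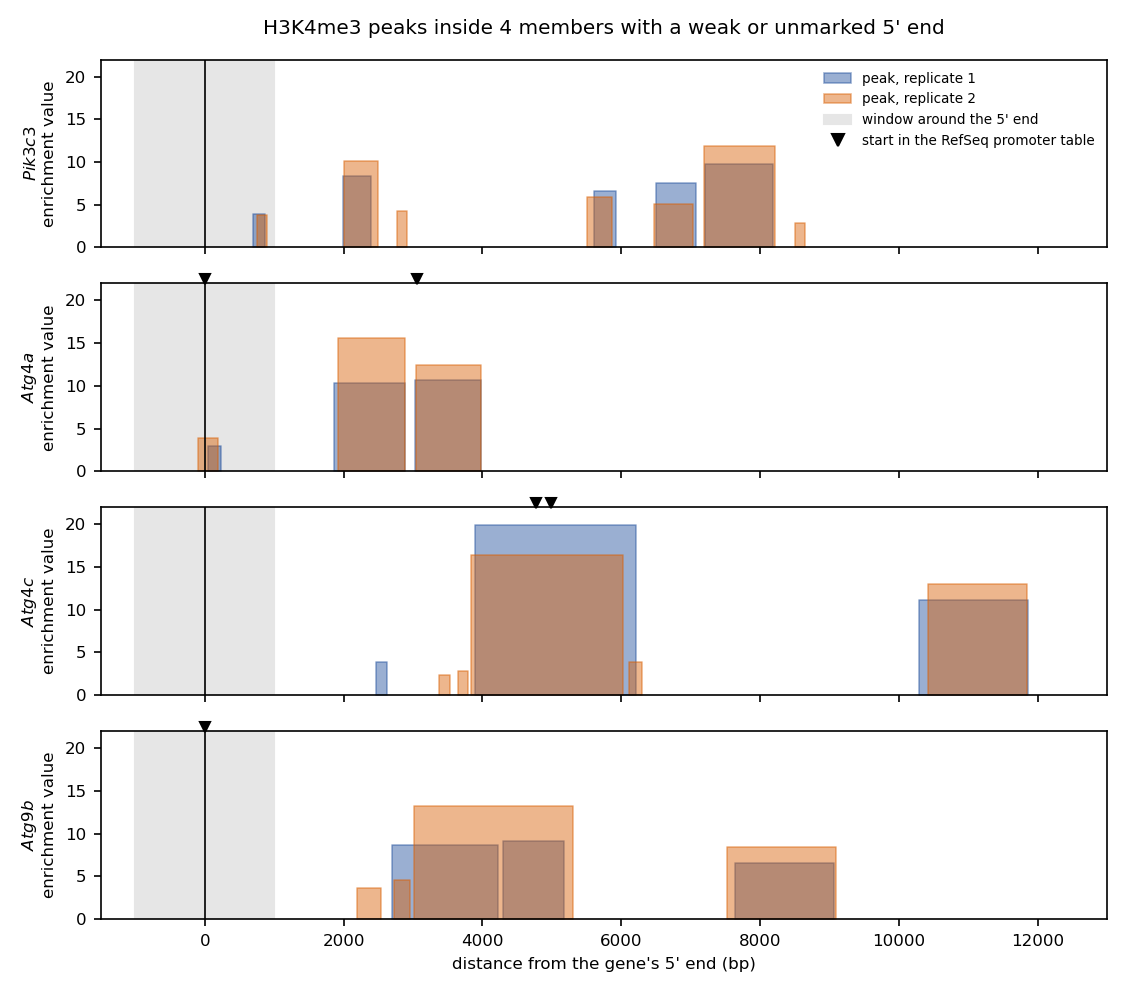
Peaks of replicate 1 (blue) and replicate 2 (orange) along Pik3c3, Atg4a, Atg4c and Atg9b, as boxes from peak start to peak end (x axis, distance from the 5' end in bp) and up to the enrichment value (y axis). Triangles are starts of the RefSeq promoter table and the grey band is the 1000 bp window around the 5' end. In Pik3c3 and Atg4a the strongest inner peaks stand above the peak inside the band, and Atg4c and Atg9b have no peak there.

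Each replicate held a further peak more than 1000 bp from the 5' end in 12 of the 37 marked members, beside 35.3% of marked genes. It was not required to be the same peak, and the highest ones of Atg7 and Wipi1 did not overlap between replicates. For Gabarap and Nbr1 the further peaks covered the 5' ends of Phf23 and Tmem106a. For Atg9a the peak of replicate 2 covered the 5' end of Abcb6 while that of replicate 1 ended just short of it. In Atg10, the E2-like enzyme for ATG12, a peak 43961 to 44670 bp inside the gene had values of 9.49 and 12.1. Bnip3l held a low peak 9271 to 10141 bp inside the gene, with 5.03 and 4.81, and Optn one at 21431 bp with 4.15 and 4.34. The inner peaks of Atg10, Bnip3l and Optn were weaker than the same genes' 5' peaks in both replicates.

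Other genes of the pathway were marked as widely, 45 of 47 beside the 47.1% of all genes, with a median value of 13.5 and a median width of 2231 bp. All 10 regulators and lipid kinase partners, all 9 genes of fusion with the lysosome and all 5 transcriptional regulators were marked, as were 14 of 15 further receptor genes and 7 of 8 nutrient-sensing genes. The highest of them was Rictor, a subunit of mTOR complex 2, with 17.4 and 24.0 (20.7 ± 4.65). Ncoa4, the receptor that carries ferritin to the lysosome, had 25.5 and 14.8 (20.2 ± 7.54), and Tbk1, a kinase that phosphorylates optineurin and p62, had 20.1 and 19.1 (19.6 ± 0.771). Unmarked at the 5' end were Retreg1, a receptor for endoplasmic reticulum, and Prkaa2, a catalytic subunit of the AMP-activated kinase. Retreg1 held an inner peak 89428 bp downstream, with values of 6.70 and 11.7. The highest values within 1000 bp of its RefSeq promoter starts were the same, so Retreg1 was marked at a listed start in both replicates. Prkaa2 held only a peak of replicate 1, with 3.94, whereas its paralogue Prkaa1 had 16.4 and 21.1.

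The peak sets had 48026 peaks in replicate 1 and 46950 in replicate 2, with median enrichment values of 5.51 and 5.31. They hold no read counts, so depth is unknown. Of 10 erythroid marker genes, 9 were marked, and Gata1 was not at its outermost 5' end. Gata1 held an inner peak with 21.1 and 15.0, from 8779 to 12222 bp in replicate 1. Klf1 had 20.7 and 21.3 and Alas2 20.9 and 15.01, whereas at the 5' end Slc4a1 had only 3.97 and 4.51 and Nfe2 4.4 and 7.25. The low Nfe2 values are those of the 1000 bp window. Its domain measured 11038 and 10475 bp and held a higher inner peak in both replicates. That peak ran from 2191 to 6500 bp in replicate 1 and from 2200 to 5540 bp in replicate 2. Its value was 14.25 in replicate 2 and higher in replicate 1. None of 6 myeloid or 5 lymphoid markers was marked, and of 4 fibroblast and epithelial markers only Col1a1 was, with 4.51 and 5.82. Over the gene span and 1000 bp around it, Itgam, Cd3d, Cd79a, Pax5 and Cdh1 also held peaks of both replicates. The highest of these was 16.6 for Cd79a in replicate 2, and Col1a1 held an inner peak of 9.66 and 15.7. At the 5' end the erythroid label thus went with marked erythroid genes and with unmarked myeloid and lymphoid ones. The labels call the replicates biological, and an SD over 2 of them is imprecise.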

How the data were processed

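H3K4me3 ChIP-seq peaks of 2 biological replicates were taken as deposited. Per the file headers and labels they are on mm10, 1 set per replicate, with a pooled and a replicated set. The aligner and peak caller are not given in the sources used here. Per the file headers, the authors gave each peak a signal score, called the enrichment value, and p-values and q-values as −log10. Gene spans came from the RefSeq table of GRCm38.p6. Strand came from the RefSeq promoter table (17492 genes) or from GENCODE M1 by symbol (3649) or synonym (395), and 351 of 21887 genes had none. Peaks of chromosomes 1 to 19, X and Y only were matched to 5' ends with Python 3.11.15 and pandas 2.3.3 (minimum overlap 1 bp), by code tested on simulated data. No test was run, since there is 1 group. The members and gene lists were chosen with earlier results of these data known. The text names every receptor, the 5 strongest and 5 weakest marked core genes, the 3 widest and 3 narrowest domains, unmarked genes, and the 3 strongest further genes. Other genes, the motifs, the printed sequences and the correlation without 2 genes were chosen after values were seen. Exons and untranslated regions were not annotated.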

Additional observations from a re-analysis of the deposited data

How the results depend on the processing

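No paired analysis was possible because there is only 1 group. The number of marked members ran from 35 to 39: 36 with a 500 bp window (Pik3c3 lost) or −log10 q of at least 2 (Atg4a lost), 35 with −log10 q of at least 5 or the 20000 peaks with the highest −log10 p (both lost), 38 with a 2000 bp window (Atg9b gained), and 39 over the gene span. Chosen after seeing the data were every start of the promoter table (38, Atg4c gained) and the older mm9 set on GENCODE M1 starts (39). The replicated and pooled sets gave a median value of 13.4 for the members and 12.01 for the receptors. A width-weighted mean of peaks gave 12.99 for the members, 13.2 for the core and 12.99 for the receptors. Leaving out each replicate gave median values of 13.1 to 14.9 for the members, 13.1 to 14.9 for the core and 14.9 to 15.5 for the receptors, and median widths of 2373 to 2425 bp for the members and 2392 to 2392.5 bp for the core. Member and core widths were 2525.5 and 2557.75 bp over the gene span and with gaps of 3000 bp, 2330 and 2310 bp with −log10 q of at least 2, 2299.5 and 2304.75 bp with at least 5, 2280.5 and 2290 bp for the 20000 peaks, 2304 and 2332 bp in the replicated set, and 1424.5 and 1406.5 bp with no gap joined. The core width was also 2424 bp with a 500 bp window and at every table start, 2416.5 bp with 2000 bp, and 2402.5 bp in the pooled set. Receptor width was 2219 bp with −log10 q of at least 5 and for the 20000 peaks, and 1597 bp with no gap joined. The cause was not tested, beyond that unjoined or fewer peaks give narrower domains by construction. Receptors were higher than the core in value in 9 of 13 settings and wider in 8 of 14. Of all other results, 89 summaries and 406 single-gene values were called unchanged, and 32 single-gene values moved by more than the spread between replicates. Counts of marked genes were called unchanged within 1.5-fold, and values and widths within that spread. For a single gene, the value with a replicate left out always lies within that spread, so it was called unchanged by construction. A gene with uneven replicates is also less easily called moved. The count of unchanged single-gene values therefore overstates their stability. Of the 32, Atg4a (3.46) moved over 1.5-fold, to 12.97 with the 2000 bp window and 13.2 over the span and at every table start. So did Pik3c3 (3.88), to 9.24 and 10.8 with the window and span, and Uvrag (10.2), to 6.47 in the pooled and replicated sets. Atg9a (15.6) also fell to 9.33 in those 2 sets, over 1.5-fold but within its wide spread between replicates (SD 6.94). The low values of Atg4a and Pik3c3 thus depend on the 1000 bp window.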
